A study of Mus musculus with 6 samples.

Results

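The transcripts described here are those of the BCL2 family, the caspases, the inhibitor of apoptosis proteins (IAPs) and their partners in mitochondrial cell death. The 36 genes were taken by name from a table of read counts for 31017 gene symbols, and all 36 occur in it. They were measured in 4T1 cells, an established mouse mammary carcinoma line, which had received Cas9 by nucleofection and then grew in collagen I gels. There were 3 control libraries, made from cells given control guide RNAs, and 3 libraries labelled FGFR2 KO, made from cells given guides against the fibroblast growth factor receptor FGFR2 and called KO here after that label. Every culture was seeded at 100000 cells per ml in collagen at 1.2 or 2.4 mg per ml, and the labels do not say which concentration a library had, how long the gels were kept, or whether the KO cells were a pool or a clone. All gels were digested with collagenase at 300 U per ml for 10 min and then a further 5 min before the cells were frozen.

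Apoptosis through the mitochondrion is decided between proteins of the BCL2 family. Anti-apoptotic members such as BCL2, BCL-XL and MCL1 hold back the pore-forming effectors, and the BH3-only proteins, which share only the short BH3 helix with the rest, relay stress signals by occupying the anti-apoptotic members or by activating the effectors. Open pores release cytochrome c, which assembles with APAF1 into the apoptosome and activates caspase-9, while death receptors activate caspase-8 at the plasma membrane. IAPs restrain the caspases, and mitochondrial proteins released through the same pores relieve that restraint. In mammary epithelium grown in matrix, the BH3-only proteins BIM (Bcl2l11) and BMF are known for their part in the death of cells that lose contact with the matrix and in the clearing of the acinar lumen.

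The libraries held 15531790 to 20447719 counts, and levels are given in CPM, the usual unit of counts scaled to a common library total. Values of single libraries are listed in the order of replicates 1, 2 and 3. Fgfr2 itself was read in every library, at 96.9, 95.9 and 106 CPM across the control replicates and 101, 81.2 and 95.2 CPM across the KO replicates (log2 fold change -0.11, 95% interval -0.22 to 0.01, edgeR adjusted p = 0.113). A count over the whole gene cannot show whether its reading frame was cut, so it is no check of the KO label. The epithelial markers Epcam, Cdh1, Krt8, Krt18, Krt7 and Krt14 summed to between 4764 and 4955 CPM in every library, although within that list Krt14 rose from 60.2 to 957 CPM, Cdh1 rose and the other 4 fell. Of 9 leukocyte markers 3 had no count, Cd3e and Adgre1 among them, Ptprc had 3 counts in all, and the list summed to 23.1 to 25.5 CPM in controls and 15.9 to 17.04 CPM in KO cells, mainly from Cd14 and from Cd68, which fell from 13.7 to 5.97 CPM. The 5 endothelial markers (Kdr and Tek at 0 counts) summed to at most 0.856 CPM. The 6 fibroblast markers (Lum at 0 counts) summed to 36.3 to 38.2 CPM in controls and 39.7 to 45.4 CPM in KO cells. Nearly all of this was Pdgfra, which did not pass the test (log2 fold change 0.12, edgeR adjusted p = 0.143). Col1a1 rose from 0.437 to 1.24 CPM (log2 fold change 1.47, edgeR adjusted p = 0.00338). Dcn and Pdgfrb, too scarce to be tested, were higher in every KO library than in any control library. In RNA from whole cultures, fewer cells that carry a transcript and less of it per cell cannot be told apart. Whether the replicates were grown apart is not stated in the labels, and the spread behind each p-value may therefore be technical.

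Of the 36 genes, 34 had enough counts to be tested and 23 of those (67.6%) passed, 11 higher and 12 lower in the KO libraries. Over all 12158 genes tested, 54.6% passed, 27.1% higher and 27.5% lower, so a call by itself is common in this comparison, and the members' share was not tested against that background. With both sets limited to a mean of at least 5 CPM, 22 of 31 members (71.0%) and 57.9% of 10063 genes passed. The same 23 genes were those in which the 3 KO libraries lay wholly above or wholly below the 3 control libraries (11 above, 12 below), which held for 59.5% of all genes tested. Most shifts were small: the median size of the log2 fold change was 0.25 among the members and 0.21 among all genes, and the median signed change was -0.00056 and -0.0061. Only Bcl2, Bcl2l11 and Cycs moved by at least 1.5-fold, and Bcl2 and Bcl2l11 alone passed a test against a minimum change of that size (edgeR adjusted p = 5.2e-05 and 0.0017).

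**Figure D1:**
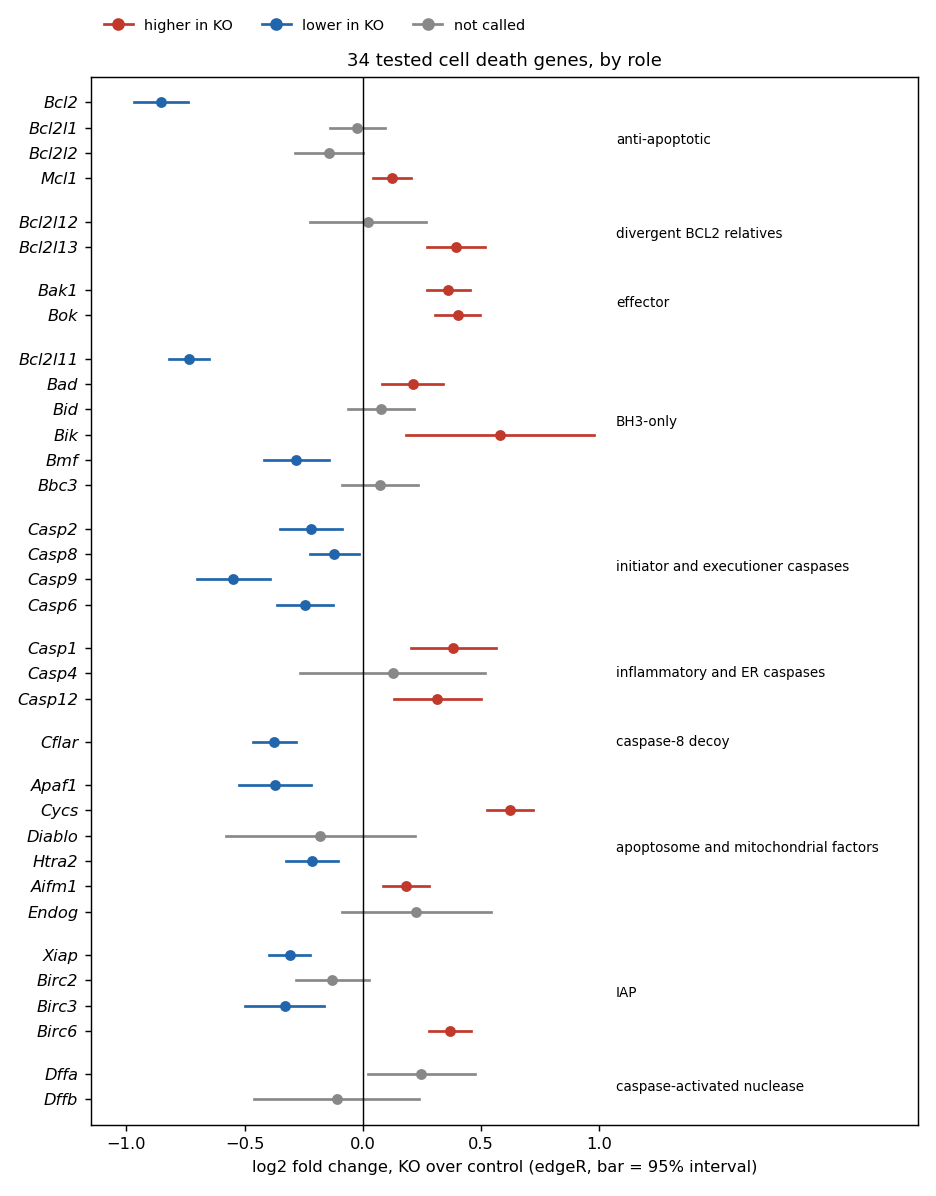
Log2 fold change (KO over control, horizontal axis) of the 34 tested genes, grouped by role on the vertical axis, with points for the estimate and bars for the 95% interval from 3 libraries a group. Red genes were higher, blue genes lower and grey genes not called at an edgeR adjusted p below 0.05. Bcl2 and Bcl2l11 lie farthest to the left and Cycs farthest to the right, and the 4 caspases that start or carry out apoptosis all lie left of 0.

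The 2 pore-forming effectors in the list rose together. Bak1, which sits in the outer mitochondrial membrane and forms pores there, was at 105, 98.5 and 106 CPM across the control replicates and 129.6, 139 and 129 CPM across the KO replicates. Bok, a relative that can form pores without help from BH3-only proteins, was at 109.8, 125 and 113 CPM across the control replicates and 148, 162 and 149 CPM across the KO replicates. For each gene the lowest KO library stood above the highest control library. Bak1 went from 103 ± 4.01 to 132 ± 5.54 CPM (SD, n = 3; log2 fold change 0.36, SE 0.045, edgeR adjusted p = 1.35e-08) and Bok from 116 ± 7.72 to 153 ± 7.70 CPM (SD, n = 3; log2 fold change 0.40, SE 0.047, edgeR adjusted p = 3.41e-09), or 28.5% and 32.0% higher. Both calls held under each scaling, filter and tool tried and without any 1 library, and were lost only against a minimum change of 1.5-fold. Exons of Bak1 overlap Ggnbp1 on the other strand (437 and 177 bases for its 2 annotated gene models), a gene that fell from 6.35 to 3.69 CPM. The library kit keeps strand, but the strand setting of the counting is not among the steps the sources record. Bax, the third effector, is outside the list of 36 and went from 70.04 ± 8.62 to 69.9 ± 10.1 CPM (SD, n = 3; log2 fold change -0.01, 95% interval -0.16 to 0.14, edgeR adjusted p = 0.933).

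Among the anti-apoptotic genes Bcl2 fell, Mcl1 was slightly higher, and Bcl2l1 and Bcl2l2 did not pass the test. Bcl2 (mm10 chromosome 1, 106538178 to 106714274, minus strand), the founding member, which binds BH3-only proteins at mitochondria and the endoplasmic reticulum, stood at 69.5, 70.8 and 65.9 CPM across the control replicates and 37.1, 37.9 and 39.1 CPM across the KO replicates. The 2 groups were far apart, and the change from 68.7 ± 2.56 to 38.03 ± 0.976 CPM (SD, n = 3; log2 fold change -0.86, SE 0.056, edgeR adjusted p = 9.46e-16) meant that it fell by 44.7%. It was the largest change in the list, and 8.87% of all tested genes changed by more. Mcl1 (chromosome 3, 95658788 to 95663176, plus strand), a short-lived protein that restrains BAK, stood at 237, 248 and 235 CPM across the control replicates and 249, 273 and 262 CPM across the KO replicates. Its groups were separated narrowly, by the gap between control replicate 2 and KO replicate 1 (log2 fold change 0.12, SE 0.039, edgeR adjusted p = 0.00753), and without KO replicate 2 the call was lost (log2 fold change 0.09, edgeR adjusted p = 0.0601). Bcl2l1, which encodes BCL-XL, ranged from 62.5 to 70.3 CPM in controls and from 59.9 to 69.1 CPM in KO cells (log2 fold change -0.02, 95% interval -0.14 to 0.09, edgeR adjusted p = 0.753). Bcl2l2 (BCL-W) ranged from 36.1 to 36.9 and from 29.8 to 37.0 CPM (log2 fold change -0.14, 95% interval -0.29 to 0.00, edgeR adjusted p = 0.0869). KO replicate 3 stood just above the highest control, and without it the fall of Bcl2l2 passed (log2 fold change -0.23, edgeR adjusted p = 0.0088), as it did narrowly with upper quartile scaling (edgeR adjusted p = 0.0494). Bcl2l2 shares 13.3% of its exon bases with Gm20521 on the same strand.

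Within the anti-apoptotic pool, Mcl1 held a larger share and Bcl2 a smaller share in every KO library, while the summed levels overlapped. Per kb of exon, which allows levels of different genes to be set side by side, Mcl1 was the most abundant of the 4 at 70.3 CPM per kb in controls and 76.6 CPM per kb in KO cells, followed by Bcl2l1 (14.3 and 14.1), Bcl2l2 (8.20 and 7.41) and Bcl2 (7.51 and 4.15). Mcl1 made up 69.96%, 69.98% and 70.3% of the summed level in the controls and 74.98%, 75.6% and 74.1% in the KO cells. Bcl2 made up 7.66%, 7.45% and 7.34% against 4.16%, 3.91% and 4.12%. The sum itself was 97.99 to 104 CPM per kb in controls and 97.3 to 106 CPM per kb in KO cells, with the groups overlapping.

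The promoter sequences of these 2 genes are shown because they are the most abundant and the most changed of the anti-apoptotic genes. Each is the 250 bases before the RefSeq start (GRCm38.p6), 5′ to 3′ on the gene's strand, and neither window overlaps an annotated exon. In the Bcl2 window (chr1:106714291-106714540, minus strand) the capitals mark 7 GC boxes (GGGCGG on either strand) and, at -107 counted back from the start, 1 core of the cyclic AMP response element (CRE; core TGACG on either strand). In the Mcl1 window (chr3:95658471-95658720, plus strand) they mark 1 ETS motif (CCGGAAG on either strand) at -63 and 1 GC box at -20.
Bcl2: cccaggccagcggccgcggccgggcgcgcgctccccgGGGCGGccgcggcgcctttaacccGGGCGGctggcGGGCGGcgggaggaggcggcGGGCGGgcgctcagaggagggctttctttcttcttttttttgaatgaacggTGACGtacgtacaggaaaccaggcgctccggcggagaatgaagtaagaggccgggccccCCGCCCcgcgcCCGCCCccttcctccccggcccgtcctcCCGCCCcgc
Mcl1: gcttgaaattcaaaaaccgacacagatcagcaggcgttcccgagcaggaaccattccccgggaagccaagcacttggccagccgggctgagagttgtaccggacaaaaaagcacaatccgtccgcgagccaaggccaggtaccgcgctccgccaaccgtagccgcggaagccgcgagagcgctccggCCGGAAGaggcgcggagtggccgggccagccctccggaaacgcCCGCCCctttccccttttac

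Of the 2 divergent relatives, Bcl2l13 rose and Bcl2l12 did not pass the test. Bcl2l13 (BCL-RAMBO), an outer membrane protein known as a receptor for the removal of mitochondria, was at 37.8, 36.4 and 39.4 CPM across the control replicates and 51.6, 49.2 and 48.5 CPM across the KO replicates, with no overlap (log2 fold change 0.40, SE 0.060, edgeR adjusted p = 7.54e-07). Bcl2l12 stayed between 8.57 and 9.55 CPM in all 6 libraries (log2 fold change 0.02, 95% interval -0.22 to 0.27, edgeR adjusted p = 0.892). Bcl2l13 shares 628 exon bases with Bid on the other strand, 6.91% of its own and 17.7% of those of Bid. Bcl2l12 shares 28.9% of its exon bases with the antisense gene Gm15545, at 2.65 CPM in controls and 1.82 CPM in KO cells.

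BH3-only genes moved in both directions, and the most abundant of them fell most. Bcl2l11 (chromosome 2, 128126038 to 128162547, plus strand) encodes BIM, which binds all anti-apoptotic members and can activate the effectors. It stood at 181, 193 and 186 CPM across the control replicates and 116, 109 and 111 CPM across the KO replicates. The highest KO library was far under the lowest control library, and the mean went from 187 ± 5.80 to 112 ± 3.66 CPM (SD, n = 3; log2 fold change -0.74, SE 0.042, edgeR adjusted p = 1.37e-17). It thus fell by 39.9%, and 11.2% of tested genes changed by more. Bmf, which is tethered to the cytoskeleton in healthy cells, fell as well, from 36.1, 38.6 and 35.1 CPM to 30.2, 29.8 and 30.5 CPM (log2 fold change -0.28, SE 0.067, edgeR adjusted p = 5.59e-04). Without any 1 library the log2 fold change of Bcl2l11 ran from -0.76 to -0.71.

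Bad and Bik rose. Bad, which growth factor signalling keeps inactive by phosphorylation, went from 36.9, 32.7 and 36.4 CPM to 40.2, 41.01 and 41.2 CPM (log2 fold change 0.21, SE 0.065, edgeR adjusted p = 0.00604). Its low control value is that of replicate 2, without which the change was 0.16 and did not pass (edgeR adjusted p = 0.0715). Bik, an endoplasmic reticulum protein, was scarce, with 36 to 65 counts a library in controls and 80 to 91 in KO cells, or 3.27, 3.20 and 2.32 CPM against 4.71, 4.09 and 4.49 CPM (log2 fold change 0.58, SE 0.20, edgeR adjusted p = 0.0123). Without control replicate 3, the lowest library, Bik did not pass (log2 fold change 0.45, edgeR adjusted p = 0.0745). Bad shares 524 exon bases with Gpr137 on the other strand.

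Neither Bid, the BH3-only substrate of caspase-8, nor Bbc3, which encodes PUMA, a p53 target, passed the test. Bid ranged from 34.9 to 40.5 CPM in controls and from 37.0 to 43.9 CPM in KO cells (log2 fold change 0.08, 95% interval -0.06 to 0.22, edgeR adjusted p = 0.363), and Bbc3 from 21.7 to 24.1 and from 23.2 to 25.4 CPM (log2 fold change 0.07, 95% interval -0.09 to 0.23, edgeR adjusted p = 0.447). The remaining 2 genes were not tested. Pmaip1, which encodes NOXA, another p53 target that binds MCL1, had 0 counts in all 6 libraries. Whether reads of Pmaip1 could be assigned to it in the counting was not tested, and only if they could does the 0 allow a level of up to 0.148 to 0.194 CPM a library, the worth of 3 counts. Hrk, a gene of the nervous system, had 3 counts in all.

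Of the 6 tested BH3-only genes 2 rose, 2 fell and 2 did not pass, and the median log2 fold change was 0.07. Their summed level per kb of exon was 66.8 to 68.6 CPM per kb in controls and 60.6 to 62.2 CPM per kb in KO cells. Bcl2l11 was the largest contributor in controls, with 32.9%, 35.9% and 34.5% of that sum, against 23.3%, 22.4% and 22.7% in KO cells. Bad, at 25.3% to 26.5% of the sum, was the largest contributor there.

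Bcl2 and Bcl2l11 encode proteins that bind each other, and their transcripts fell by similar proportions. Per kb of exon the ratio of Bcl2l11 to Bcl2 was 2.97, 3.10 and 3.21 across the controls and 3.57, 3.28 and 3.25 across the KO cells. Against Mcl1, the ratio of Bcl2l11 was 0.325, 0.330 and 0.336 in controls and 0.198, 0.170 and 0.181 in KO cells. The first ratio was slightly higher in each KO library and the second was lower in each.

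The Bcl2l11 promoter is shown because BIM carried the largest fall among the BH3-only genes and has been studied as a target of FOXO factors. The window (chr2:128125788-128126037, plus strand) holds the 250 bases before the upstream of 2 RefSeq starts and overlaps no annotated exon. Capitals mark 1 FOXO motif (GTAAACA on either strand) at -227, 1 ETS motif at -105 and 3 GC boxes at -211, -74 and -46.
Bcl2l11: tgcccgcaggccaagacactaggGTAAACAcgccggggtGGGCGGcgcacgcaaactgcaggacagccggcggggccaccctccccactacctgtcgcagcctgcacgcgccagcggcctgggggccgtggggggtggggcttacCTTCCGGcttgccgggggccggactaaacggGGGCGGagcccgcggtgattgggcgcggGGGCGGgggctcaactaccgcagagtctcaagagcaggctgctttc

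**Figure D2:**
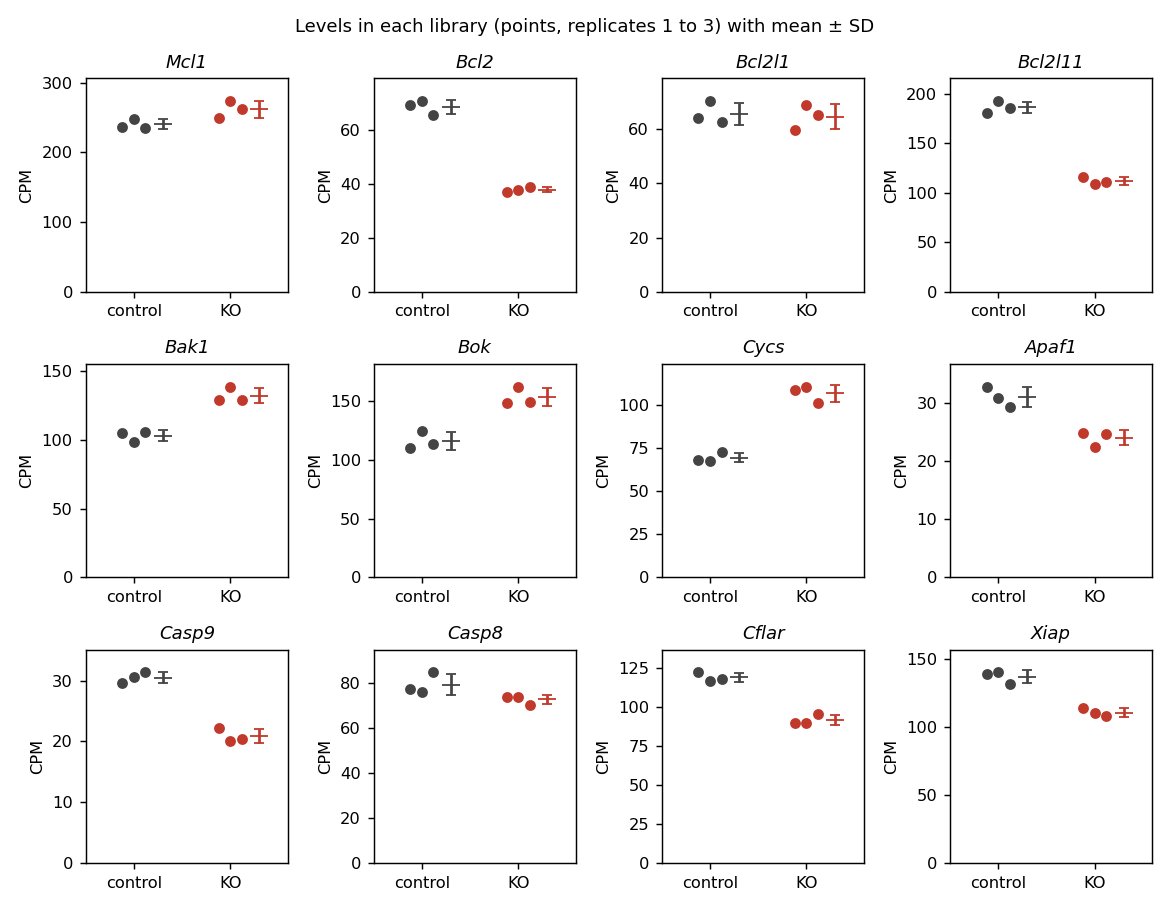
Level in CPM (vertical axes, from 0) of 12 genes in each library, with control libraries in grey, KO libraries in red, points for replicates 1 to 3 and a bar for the mean ± SD of each group. Bcl2 and Bcl2l11 show wide gaps downward, Cycs a wide gap upward, and Bcl2l1 overlapping groups.

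The genes of the mitochondrial step split between cytochrome c and its partner. Cycs (chromosome 6, 50562563 to 50566538, minus strand), which encodes somatic cytochrome c, an electron carrier as well as a death signal once released, was at 68.02, 67.4 and 72.4 CPM across the control replicates and 108, 110.4 and 101 CPM across the KO replicates. Apaf1, the scaffold that cytochrome c activates, was at 32.8, 30.97 and 29.4 CPM across the control replicates and 24.8, 22.5 and 24.7 CPM across the KO replicates. Neither gene's groups overlapped, and they moved in opposite directions. Cycs rose by 53.9% (log2 fold change 0.62, SE 0.049, edgeR adjusted p = 1.39e-13) and Apaf1 fell by 22.8% (log2 fold change -0.37, SE 0.075, edgeR adjusted p = 6.64e-05). The ratio of Cycs to Apaf1 per kb of exon was 5.94 ± 0.539 in controls and 11.8 ± 1.10 in KO cells (SD, n = 3). Cycs has processed pseudogenes that could share its reads, so its level is less certain than that of single-copy genes.

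Of the other proteins of the intermembrane space, Aifm1 rose and Htra2 fell. Aifm1 encodes the flavoprotein AIF, needed for the respiratory chain, and stood at 80.3, 86.9 and 79.6 CPM across the control replicates and 91.4, 93.2 and 95.8 CPM across the KO replicates (log2 fold change 0.18, SE 0.048, edgeR adjusted p = 0.00139). Htra2, a serine protease that antagonises IAPs after release, stood at 67.1, 69.4 and 70.9 CPM across the control replicates and 60.4, 55.4 and 62.96 CPM across the KO replicates (log2 fold change -0.21, SE 0.054, edgeR adjusted p = 0.00106). Htra2 shares 753 exon bases with Aup1 and 535 with Loxl3 on the other strand, and Loxl3 was lower in the KO libraries (log2 fold change -0.53). Diablo (SMAC), the best known IAP antagonist, was counted at only 3.20 to 4.31 CPM in the 6 libraries (log2 fold change -0.18, 95% interval -0.58 to 0.22, edgeR adjusted p = 0.454). It shares 1193 exon bases with a gene model on the same strand, Gm49027, and 1326 with B3gnt4 on the other. Whether reads in the shared bases were counted for Diablo was not tested, so its true level may be higher. Endog, a mitochondrial nuclease, ranged from 5.12 to 7.34 CPM in controls and from 6.17 to 7.92 CPM in KO cells (log2 fold change 0.23, 95% interval -0.09 to 0.54, edgeR adjusted p = 0.223), and passed without control replicate 2, its highest control library (log2 fold change 0.42, edgeR adjusted p = 0.0470). It shares 379 exon bases, 35.7% of its own, with the more abundant Spout1 on the other strand (30.7 CPM in controls, 28.7 CPM in KO cells). In all, 2 of these 6 genes rose, 2 fell and 2 did not pass, and the median log2 fold change was 0.0011.

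The Cycs promoter is shown because Cycs rose most among the members. In the 250 bases before its RefSeq start (chr6:50566570-50566819, minus strand) the capitals mark 1 full CRE (TGACGTCA, the same on both strands) at -169 and 1 further CRE core at -14. A core of the hypoxia response element (ACGTG on either strand) lies at -159 on the reverse strand and is left in lower case. An exon of the noncoding RNA 5430402O13Rik on the other strand covers 177 bases of this window.
Cycs: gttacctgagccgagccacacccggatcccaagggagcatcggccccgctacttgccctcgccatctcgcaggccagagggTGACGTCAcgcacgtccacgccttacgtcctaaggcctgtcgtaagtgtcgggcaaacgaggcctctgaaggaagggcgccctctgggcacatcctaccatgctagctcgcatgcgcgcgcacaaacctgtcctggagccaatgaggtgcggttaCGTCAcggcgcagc

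All 4 caspases of the apoptotic cascade in the list were lower in the KO libraries. Casp9, the initiator activated on the apoptosome, fell most. It was at 29.7, 30.6 and 31.4 CPM across the control replicates and 22.2, 20.1 and 20.3 CPM across the KO replicates, and fell by 31.6% (log2 fold change -0.55, SE 0.076, edgeR adjusted p = 1.42e-07). Casp6, an executioner that cleaves lamins, went from 61.2, 56.1 and 55.6 CPM to 45.3, 51.3 and 49.3 CPM (log2 fold change -0.24, SE 0.059, edgeR adjusted p = 6.00e-04), and Casp2, an initiator activated by the PIDDosome, from 42.6, 39.8 and 41.8 CPM to 37.8, 33.7 and 35.3 CPM (log2 fold change -0.22, SE 0.064, edgeR adjusted p = 0.00434). In each of these 3 genes the groups did not overlap, and the calls held without any 1 library. Casp8, the initiator at death receptors, was at 77.2, 75.96 and 84.8 CPM across the control replicates and 73.9, 74.1 and 70.4 CPM across the KO replicates (log2 fold change -0.12, SE 0.051, edgeR adjusted p = 0.0419). Its groups were separated narrowly, between control replicate 2 and KO replicate 2. The call was lost with DESeq2 (adjusted p = 0.0861) and with no filter on low counts (edgeR adjusted p = 0.0699). It was also lost on leaving out control replicate 1 (edgeR adjusted p = 0.0506), control 3 (0.275) or KO 3 (0.160). The summed level of the 4 caspases per kb of exon was 47.8 to 51.2 CPM per kb in controls and 42.1 to 43.4 CPM per kb in KO cells.

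Cflar, which encodes c-FLIP, a caspase-8 relative without protease activity that can block caspase-8 at death receptors, was lower too. It was at 122, 117 and 118 CPM across the control replicates and 89.7, 89.5 and 95.3 CPM across the KO replicates, and fell by 22.9% (log2 fold change -0.38, SE 0.045, edgeR adjusted p = 5.28e-09). The gene lies upstream of Casp8 on chromosome 1 of mm10 (Cflar at 58711508 to 58758884 and Casp8 at 58795374 to 58847503, both plus strand). The ratio of Casp8 to Cflar per kb of exon ran from 2.77 to 3.16 in controls and from 3.24 to 3.62 in KO cells.

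Of the 3 inflammatory and endoplasmic reticulum caspases, 2 rose and 1 did not pass the test. Casp1, which processes interleukin-1 beta and opens gasdermin D in inflammasomes, rose from 16.4, 15.3 and 17.4 CPM to 21.6, 21.04 and 21.1 CPM (log2 fold change 0.38, SE 0.088, edgeR adjusted p = 3.59e-04). Casp12, associated with the endoplasmic reticulum, went from 17.9, 19.9 and 18.6 CPM to 27.01, 21.8 and 21.6 CPM (log2 fold change 0.31, SE 0.090, edgeR adjusted p = 0.00352). KO replicate 1 stood above the other KO libraries in Casp12, and without it the change was 0.20 and did not pass (edgeR adjusted p = 0.0672). Casp4, the sensor of bacterial lipopolysaccharide in the cytosol, had 63 to 106 counts a library and 3.43 to 5.41 CPM (log2 fold change 0.13, 95% interval -0.26 to 0.52, edgeR adjusted p = 0.598). Casp1 is usually studied in leukocytes. Of the leukocyte markers given above Cd68 fell, while Cd14 (log2 fold change -0.04, edgeR adjusted p = 0.795) and Csf1r (log2 fold change 0.37, edgeR adjusted p = 0.415) did not pass. Which cells carried Casp1 was not tested. Pycard, the adaptor that links Casp1 to most inflammasomes, had 0 counts in all libraries, and Nlrp3 had 41 in all.

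Among the 4 IAPs, Xiap and Birc3 fell and Birc6 rose. Xiap, a direct inhibitor of caspases, was at 139.5, 140.5 and 132 CPM across the control replicates and 114, 110.5 and 108 CPM across the KO replicates, with no overlap (log2 fold change -0.31, SE 0.043, edgeR adjusted p = 1.47e-07). Birc3 (cIAP2), a ubiquitin ligase of tumour necrosis factor receptor complexes and a known NF-kB target, went from 26.7, 26.4 and 30.8 CPM to 24.3, 21.9 and 20.3 CPM (log2 fold change -0.33, SE 0.083, edgeR adjusted p = 9.24e-04). Its paralog Birc2 (cIAP1), which lies beside it on chromosome 9, ranged from 30.7 to 31.9 CPM in controls and from 24.7 to 30.7 CPM in KO cells, with KO replicate 3 the low library (log2 fold change -0.13, 95% interval -0.28 to 0.03, edgeR adjusted p = 0.153). Birc6, a very large ubiquitin-conjugating enzyme of the family, was at 125, 121 and 126 CPM across the control replicates and 161, 151 and 168 CPM across the KO replicates (log2 fold change 0.37, SE 0.043, edgeR adjusted p = 4.24e-09). Its lowest KO library lay well above the highest control library. The median log2 fold change of the 4 was -0.22, and their summed level per kb of exon was 31.5 to 31.9 CPM per kb in controls and 27.4 to 29.9 CPM per kb in KO cells. Xiap gave 43.6% to 47.1% of that sum in controls and 40.3% to 41.7% in KO cells.

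The nuclease that cuts DNA between nucleosomes late in apoptosis did not pass the test in either subunit. Dffb, the nuclease, ranged from 4.39 to 6.35 CPM in controls and from 4.49 to 5.46 CPM in KO cells (log2 fold change -0.11, 95% interval -0.46 to 0.24, edgeR adjusted p = 0.608). Dffa, its inhibitor and chaperone, ranged from 10.1 to 12.7 and from 12.4 to 15.3 CPM (log2 fold change 0.25, 95% interval 0.02 to 0.47, edgeR adjusted p = 0.0568). It passed narrowly with no filter on low counts (edgeR adjusted p = 0.0479), without control replicate 2 (0.0439) and without KO replicate 1 (0.0196).

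Set beside each other, the groups had different directions. The effectors were higher in both genes (median log2 fold change 0.38), the caspases of the apoptotic cascade lower in all 4 (median -0.23) and the inflammatory and endoplasmic reticulum caspases higher in 2 of 3 (median 0.31). The anti-apoptotic genes (1 up, 1 down, median -0.08), the BH3-only genes and the IAPs were mixed. These are counts of few genes against a background in which about as many genes rose as fell, and no test was made between the groups. Per kb of exon the sum of the effectors Bak1 and Bok, without Bax, was 1.04, 1.05 and 1.075 times the anti-apoptotic sum across the controls and 1.38, 1.38 and 1.30 times across the KO cells, while the BH3-only sum was 0.644 to 0.692 times in controls and 0.573 to 0.638 times in KO cells. The first ratio was higher and the second lower in every KO library. With Bax added to the effectors, a choice made after seeing the data, the first ratio was 1.53, 1.499 and 1.46 across the controls and 1.89, 1.73 and 1.75 across the KO cells, again higher in every KO library. Its mean in KO cells was 1.28 times that in controls without Bax and 1.19 times with Bax. The most abundant member per kb was Mcl1 in each control library and Bok in each KO library, the ratio of Bok to Mcl1 being 0.861 to 0.931 and 1.05 to 1.10. Exon length was taken over all annotated transcripts of a gene, so a level per kb is too low where long forms are not used.

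**Figure D3:**
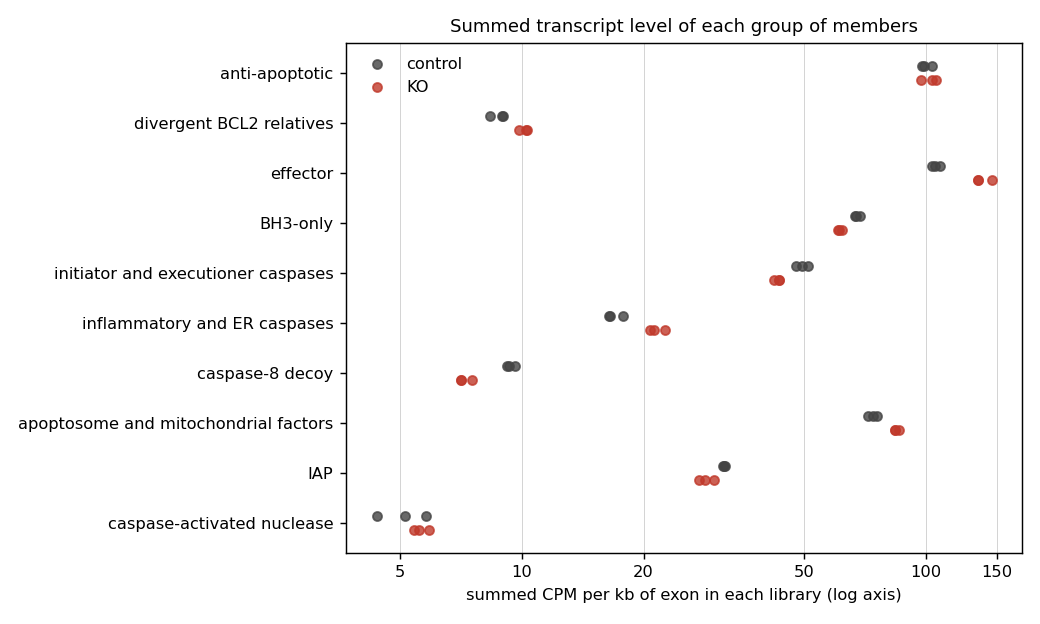
Summed level of each group of genes in each library, in CPM per kb of exon (horizontal log axis), with control libraries in grey and KO libraries in red. Effectors (Bak1 and Bok), divergent relatives, mitochondrial factors and inflammatory caspases lie to the right in the KO libraries, BH3-only genes, apoptotic caspases, Cflar and IAPs lie to the left, and the anti-apoptotic genes and the nuclease overlap.

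**Figure D4:**
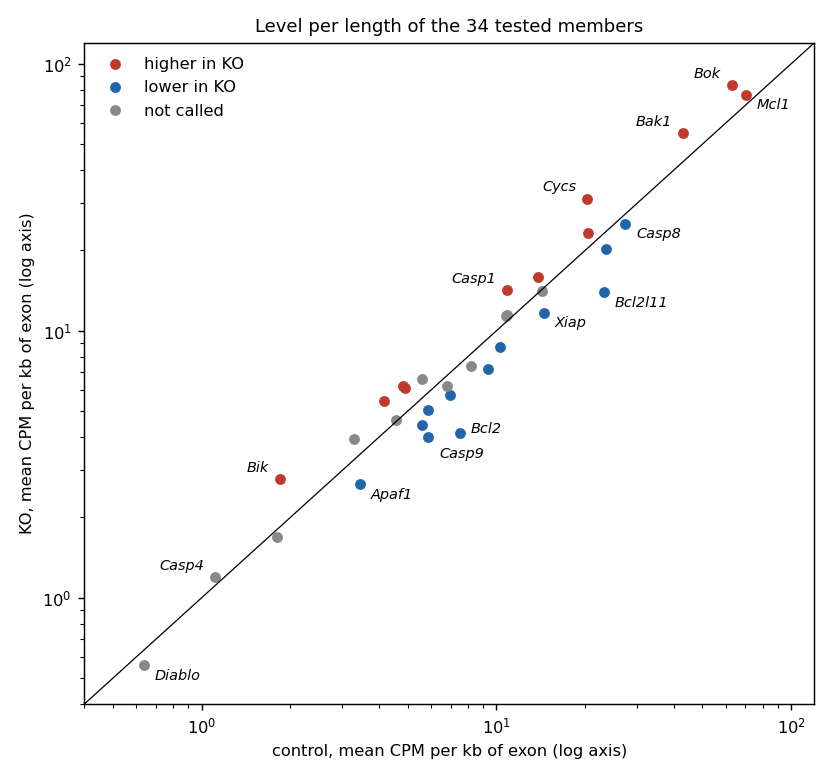
Mean level per kb of exon in the KO libraries (vertical log axis) against the control libraries (horizontal log axis) for the 34 tested genes, with a line of equal level and colours for the edgeR call. Mcl1, Bok and Bak1 are the most abundant in both groups, and Bcl2l11 and Bcl2 lie farthest below the line.

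Other genes of the death pathways were counted from a list of 39, of which 38 are in the table and 27 could be tested. Of these 27, 9 rose, 9 fell and 9 did not pass (66.7% called, beside 54.6% of all genes), and the median log2 fold change was 0.06. Fas, the death receptor for Fas ligand, rose from 9.92, 10.6 and 12.9 CPM to 25.2, 25.2 and 26.02 CPM (log2 fold change 1.20, SE 0.096, edgeR adjusted p = 2.46e-13), while Fadd, the adaptor that joins Fas to caspase-8, fell from 21.03 to 17.3 CPM. Bag3, a co-chaperone, Aven, an inhibitor of APAF1, and Birc5, the IAP relative survivin of dividing cells, rose by 0.49, 0.57 and 0.30 on the log2 scale. Bnip3 and Bnip3l, mitochondrial BCL2-interacting proteins induced by low oxygen and used in mitophagy, fell by 1.88 and 0.95 on that scale. Tnfrsf1b, a tumour necrosis factor receptor, fell by 0.36 on the log2 scale. Bcl2a1a, Bcl2a1b and Bcl2a1d, a further anti-apoptotic branch, had 0 counts in all libraries. Bcl2a1b shares 49.1% of its exon bases with Gm29094 on the same strand. Whether reads of the Bcl2a1 genes could be assigned to them in the counting was not tested, so the 0 does not show that they were absent.

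Of 12 factors known to regulate transcription of members, 5 rose, 3 fell and 4 did not pass (66.7% called, beside 54.6% of all genes). None changed by as much as 1.5-fold. Trp53 rose from 62.6 to 73.2 CPM, Hif1a from 148 to 161 CPM, Foxo3 from 47.9 to 53.6 CPM and E2f1 from 60.2 to 67.0 CPM. Jun fell from 597 to 480 CPM, Myc from 187 to 167 CPM and Ddit3, which encodes the stress factor CHOP, from 25.8 to 22.5 CPM. These are transcript levels, and the activity of the proteins was not measured. Transcripts known to respond to warm dissociation were also unequal between the groups. Fos, Fosb, Jun, Egr1, Atf3, Hspa1a, Hspa1b and Dnajb1 summed to 2372 to 2454 CPM in controls and 2147 to 2324 CPM in KO cells. All but Hspa1a could be tested, and of these 7 genes 5 rose and 2 fell (100% called, beside 54.6% of all genes). The part of these transcripts in the results above was not tested.

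RefSeq promoter windows were at hand for 33 of the 36 genes, and 11 motifs were searched in them on both strands. GC boxes occurred in 21 of these 33 genes (63.6%) and in 35.4% of all 27025 genes with a window, among windows with a median GC content of 60.0% for the members and 52.4% for all. Only 12158 genes had enough counts to be tested, so the 27025 include many that did not, whereas 34 of the 36 members did. The shares of this motif and of those below therefore compare unlike sets of genes. By call, GC boxes occurred in 5 of 10 genes that rose, 7 of 11 that fell and 8 of 11 that did not pass. The ETS motif occurred in 4 of the 33 genes (Bcl2l11, Bcl2l13, Birc2 and Mcl1; 7.83% of all genes), the FOXO motif in 3 (Bcl2l11, Bbc3 and Casp4; 3.54%), the full CRE in 2 (Cycs and Birc2; 1.77%) and the AP-1 motif (TGACTCA or TGAGTCA on either strand) in 0 (5.16%). The CRE core, which is part of the full CRE, occurred in 11 of the 33 genes and in 19.8% of all genes. The hypoxia response core occurred in 7 of the 33 genes (Apaf1, Bbc3, Casp1, Casp6, Cycs, Endog and Xiap; 18.5% of all genes), and the E-box CACGTG, which contains it, in 2 (Bbc3 and Casp1; 6.86%). The NRF1 core (TGCGCA) occurred in 4 (Bcl2l13, Birc6, Casp2 and Dffb; 7.36%), the TATA motif (TATAAA) in 3 (Bcl2l12, Cflar and Xiap; 14.3%) and an E2F motif (TTTGGCGC, TTTCCCGC or TTTCGCGC) in 2 (Bcl2l1 and Casp2; 1.78%). A match describes letters in the window and does not show binding.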

How the data were processed

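Poly(A) RNA-seq of 6 libraries of 4T1 cells in collagen gels was analysed, 3 per group. The authors deposited raw read counts, 1 row per gene symbol. FastQC 0.11.9, STAR 2.7.9a, featureCounts, R 4.1.1 and the builds hg38 and mm10 are named, without roles, per the submitters' processing notes. The kit was stranded, per the labels' protocols. The sources used here do not give the annotation release, the strand setting or how multi-mapping reads were treated. Columns were matched by library name and 0 were left over. Counts were tested with edgeR 4.0.16 in R 4.3.3: filterByExpr (minimum count 10, total 15), TMM scaling, the group as the only term, the quasi-likelihood F-test, and Benjamini-Hochberg adjustment over all 12158 genes tested, with a threshold of 0.05. Log2 fold changes are KO over control (prior count 0.125), with SE taken as the size of the log2 change over the root of F, and 95% intervals. CPM use the TMM-scaled totals. Exon lengths, positions and overlaps are from GENCODE M21 (mm10) and promoters from RefSeq (GRCm38.p6, the same build as mm10). The fit was tested on simulated data. Alternatives were DESeq2 1.42.0, limma-voom (limma 3.58.1), other scalings, filters, a minimum fold change of 1.5, a replicate block and leaving out each library. A ratio with Bax among the effectors was added after seeing the data. The members, the group assignments and the other lists were chosen with earlier results of these data known. All 36 members are given, and from each other list the 4 genes with the smallest adjusted p in each direction among those with a mean of at least 5 CPM. Some genes of these lists are not reported here. Further genes named from those lists (Bax, Fadd, Pycard, Nlrp3 and the Bcl2a1 genes) were chosen after their values were seen. Replicates of a group differed by more than counting noise (chi-square per degree of freedom 2.29 to 4.89), so none was counted as a repeat of another.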

Additional observations from a re-analysis of the deposited data

How the results depend on the processing

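Across 13 alternatives without a minimum fold change, 18 of the 23 called members kept call and direction, 0 reversed, and 5 (Mcl1, Bad, Bik, Casp8 and Casp12) lost the call in at least 1, with the values given beside each gene; the cause was not tested. Of the 11 members that were not called, 3 (Bcl2l2, Endog and Dffa) gained a call in at least 1. A filter of 5 CPM left out Bik, Casp4 and Diablo. Against a minimum fold change of 1.5, 0 members were higher and 2 lower, in place of 11 and 12, and over all genes 402 were higher and 505 lower, in place of 3300 and 3339. With the replicate number as a replicate block, 11 members were higher and 11 lower, Casp8 being lost (edgeR adjusted p = 0.0611). The deviations of same-numbered libraries from their group means correlated at -0.029, -0.0032 and -0.064, so the numbers were not taken as pairs. Direction changed only in members that were not called: Bcl2l12 was -0.00074 with upper quartile scaling, and without 1 library the log2 fold changes ran from -0.071 to 0.032 for Bcl2l1, from -0.019 to 0.059 for Bcl2l12, from -0.039 to 0.31 for Casp4 and from -0.21 to 0.069 for Dffb. Bik, Casp4, Diablo, Endog and Dffb had the fewest counts of the tested members and the largest SE, at least 0.1555. The part of depth in this was not tested.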
